A study of Mus musculus with 7 samples.

Results

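The FGF and ERK feedback genes described here are 10 genes of the fibroblast growth factor (FGF) signalling pathway: Fgf4, Fgf5, Dusp6, Spry2, Spry4, Spred1, Etv4, Etv5, Egr1 and Fos. Their members in the data are the merged H3K27ac peaks that overlapped each gene body or the 10 kb on either side of it (mm10, GENCODE M21), which gave 56 of the 66841 peaks. The rule that assigned peaks to the genes used position only, but the genes themselves were chosen with earlier results of these data known. H3K27ac, the acetylation of histone H3 at lysine 27, marks active promoters and enhancers.

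In this pathway, secreted FGF ligands bind FGF receptors, and adaptors and exchange factors pass the signal to Ras and on through the kinases Raf, MEK and ERK. ERK then switches on immediate-early genes such as Egr1 and Fos, and ETS transcription factors such as Etv4 and Etv5, together with inhibitors (Dusp6, the Sprouty genes and Spred1) that dampen the same signal. In mouse embryonic stem (ES) cells, Fgf4 is the ligand the cells secrete themselves, ERK signalling prepares them to leave the pluripotent state, and Fgf5 is widely used as a mark of the primed epiblast state.

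The libraries came from ChIP-seq for H3K27ac in A2Lox mouse ES cells that carried a doxycycline-inducible NeuroD1 transgene. NeuroD1 is a proneural bHLH transcription factor. The cells were kept in medium with LIF on inactivated feeder fibroblasts and were moved to a feeder-free state before the experiments. Cells at 0 h received no doxycycline, and cells at 12 h and 48 h had been grown for that long with 500 ng per ml of it. The libraries of a time point, 2 in each case, are called R1 and R2. The sources used here do not say that they came from separate cultures, so that the p-values measure the spread between these libraries, which may be technical. All 6 libraries came from a single transgenic line, and no library of doxycycline-treated cells without the transgene was analysed here, so that the effects of NeuroD1, of doxycycline and of time in culture cannot be told apart.

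Reads in merged peaks totalled between 6283103 and 8112895 per library, and the member peaks held between 0.201% and 0.233% of them. The 48 h replicates stood further apart than the others. Over all peaks, the chi-square of R1 against R2 was 5.54 per degree of freedom at 48 h, compared with 1.79 at 0 h and 1.42 at 12 h. Promoter peaks, which lie within 2 kb of a transcription start site (TSS), held 57.4% of reads in 48 h R1 and 50.3% in 48 h R2, compared with 52.2% and 53.7% at 0 h and 44.3% and 44.2% at 12 h. Many results at 48 h are therefore also given without a 48 h library. In those fits the spread came from the 0 h and 12 h pairs alone, which can understate the spread at 48 h. All 10 markers of ES cells had a promoter peak, with a summed level of 22520.3 to 22820 scaled counts at 0 h, 25361 to 25475.5 at 12 h and 15376 to 19664 at 48 h. Of these, 4 lost H3K27ac at 48 h vs 0 h, or 5 without 48 h R1 and 7 without 48 h R2. Of 8 neuron markers, 7 had a promoter peak (all but Dcx) and 2 gained H3K27ac at 48 h (Tubb3 and Rbfox3), with a summed level of 624 to 669 at 0 h, 499 to 507 at 12 h and 695 to 968 at 48 h. Without 48 h R1, 1 gained and 1 lost it. Of 8 markers of feeder fibroblasts, 3 had a promoter peak and Col1a2, Col3a1, Postn, Prrx1 and Thy1 had none, with summed levels of 61.6 to 74.9 at 0 h, 58.9 to 61.1 at 12 h and 83.4 to 192 at 48 h, and Twist1 and Pdgfrb gained H3K27ac at 48 h, though neither was called without 48 h R1. At 12 h vs 0 h, 1 ES cell marker (Tfcp2l1) and 1 neuron marker (Elavl3) lost H3K27ac, and no marker gained it. Of the promoter peaks of all 13147 genes, 22.1% lost and 1.77% gained H3K27ac in that comparison. At 48 h vs 0 h, 2.82% lost and 4.07% gained it. The part of these other cell types in the results below was not tested. In bulk libraries, fewer cells with a mark and less of the mark per cell cannot be told apart.

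Throughout, a scaled count is the read count of a peak brought to a common depth, the mean of the 6 library totals. Changes are log2 fold changes from edgeR's quasi-likelihood test, fitted over all peaks with library totals as the offset, and a peak was called (as gained or lost) if its p, adjusted by Benjamini-Hochberg, lay under 0.05. The model had 3 residual degrees of freedom, and the biological coefficient of variation was 14.9% over peaks. Peaks are numbered within each gene in order of chromosome position, so that Etv4_5 is the fifth peak of the Etv4 locus. Depth set how firmly a peak could be judged. Of the 56 member peaks, 53 reached 10 reads in 2 libraries or more, but 29 held fewer than 20 reads per library on average.

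The member peaks lay in the promoters (11 peaks), elsewhere in exons (9) or introns (11) of the genes, and upstream (11) or downstream (14) of them. Of the upstream peaks, Fgf4_1 lay at the start of Fgf3, the neighbour of Fgf4. Fgf4_2, counted under introns, lay in the annotated span of Fgf4 but before its first protein-coding TSS. The median width was 559.5 bp, compared with 676 bp for all peaks. Wide domains were common, with 8 of 56 member peaks (14.3%) over 5 kb, compared with 2.41% of all peaks. Their median GC content was 50.1%, compared with 50.2% for all peaks.

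NeuroD1 and other bHLH factors bind E-boxes, whose letters are CANNTG, and ETS factors such as Etv4 and Etv5 bind motifs with a GGAA core. Shown here are the central 300 bases of the called peak with the largest change at each of 5 loci, then the 250 bases before the TSS of Fgf5 and of Fos, whose promoter peaks rose at 48 h. Capitals mark E-boxes. Letters are those of the mm10 plus strand, which is also the coding strand of Fgf4, Fgf5, Dusp6 and Fos, and the 250 bases are those before the RefSeq start (GRCm38). Etv4_5 (chr11:101774928-101775227) is the centre of a peak that overlaps coding exons about 10 kb inside Etv4. Fgf4_3 (chr7:144860738-144861037) covers the bases from 648 to 349 bp before the first protein-coding TSS of Fgf4. Dusp6_3 (chr10:99270825-99271124) lies downstream of Dusp6. Spry2_8 (chr14:105905031-105905330) lies upstream of Spry2, and 45.0% of its bases are masked as repeats. Fos_2 (chr12:85485677-85485976) lies downstream of Fos. The stretches before the starts are chr5:98253934-98254183 for Fgf5 and chr12:85473640-85473889 for Fos.
Etv4_5: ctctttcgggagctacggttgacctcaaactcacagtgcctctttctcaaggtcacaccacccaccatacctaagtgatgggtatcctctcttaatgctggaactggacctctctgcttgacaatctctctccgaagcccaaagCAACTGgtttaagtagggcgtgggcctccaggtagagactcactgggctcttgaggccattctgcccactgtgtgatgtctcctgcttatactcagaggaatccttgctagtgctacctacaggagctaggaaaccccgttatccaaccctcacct
Fgf4_3: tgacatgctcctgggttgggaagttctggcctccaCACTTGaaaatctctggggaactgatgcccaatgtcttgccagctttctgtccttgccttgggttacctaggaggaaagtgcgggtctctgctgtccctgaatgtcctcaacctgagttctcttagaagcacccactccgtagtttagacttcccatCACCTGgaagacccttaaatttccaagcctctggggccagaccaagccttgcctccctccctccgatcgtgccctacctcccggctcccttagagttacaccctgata
Dusp6_3: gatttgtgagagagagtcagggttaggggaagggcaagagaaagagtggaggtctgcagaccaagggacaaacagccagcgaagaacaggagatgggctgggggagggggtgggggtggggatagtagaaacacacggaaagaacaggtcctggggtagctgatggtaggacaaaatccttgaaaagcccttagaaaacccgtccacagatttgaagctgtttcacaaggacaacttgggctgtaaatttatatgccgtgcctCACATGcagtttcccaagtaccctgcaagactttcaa
Spry2_8: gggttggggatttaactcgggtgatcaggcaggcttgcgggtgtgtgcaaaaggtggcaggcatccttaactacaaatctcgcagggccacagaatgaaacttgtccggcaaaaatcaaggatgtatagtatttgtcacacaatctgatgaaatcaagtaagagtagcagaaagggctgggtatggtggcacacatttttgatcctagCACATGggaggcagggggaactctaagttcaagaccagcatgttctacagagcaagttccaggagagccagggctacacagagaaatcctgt
Fos_2: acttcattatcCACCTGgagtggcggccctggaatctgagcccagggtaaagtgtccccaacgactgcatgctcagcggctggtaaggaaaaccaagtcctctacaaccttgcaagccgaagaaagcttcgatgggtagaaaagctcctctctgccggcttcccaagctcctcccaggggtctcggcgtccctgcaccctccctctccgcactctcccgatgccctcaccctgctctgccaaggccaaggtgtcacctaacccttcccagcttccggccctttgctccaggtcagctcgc
Fgf5 upstream: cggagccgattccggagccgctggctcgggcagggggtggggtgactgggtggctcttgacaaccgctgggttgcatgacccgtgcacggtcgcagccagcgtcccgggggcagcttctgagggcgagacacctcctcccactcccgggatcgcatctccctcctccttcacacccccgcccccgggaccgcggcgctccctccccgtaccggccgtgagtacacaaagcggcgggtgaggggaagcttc
Fos upstream: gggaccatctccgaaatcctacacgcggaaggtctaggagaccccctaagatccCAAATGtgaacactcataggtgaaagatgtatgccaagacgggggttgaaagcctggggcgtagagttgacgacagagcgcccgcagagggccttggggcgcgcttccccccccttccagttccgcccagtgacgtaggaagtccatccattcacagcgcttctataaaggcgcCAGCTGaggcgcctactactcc

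Each of the 5 peak centres shown held 1 E-box, or 2 in Fgf4_3, and none of these was CAGATG or CAGCTG, the flavours searched for NeuroD1 and its partners. Fos had 2 E-boxes before its start, of which 1 was CAGCTG, and Fgf5 had none. Over all 56 members, the central 300 bases held an E-box in 45 peaks (80.4%), CAGCTG in 11 (19.6%) and CAGATG in 4 (7.14%), searched on both strands. The shares over all peaks were 75.3%, 16.1% and 18.5%. The ETS core GGAAGT was found in 14 members, compared with 17.1% of all peaks, and CCGGAA in 10 (17.9%), compared with 11.2%. Fgf4_3 held 2 copies of GGAAGT in the stretch shown. In the 250 bases before 32851 RefSeq starts, 66.2% held an E-box, 13.0% held CAGCTG and 14.4% held CAGATG. These motifs overlap in part, since CAGCTG and CAGATG are also E-boxes, and a match describes the letters only.

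Between 0 h and 12 h, 3 member peaks gained H3K27ac (5.36%) and 1 lost it (1.79%), whereas 9.93% of all peaks gained and 6.03% lost it. Between 0 h and 48 h, 2 member peaks gained (3.57%) and 5 lost H3K27ac (8.93%), compared with 8.56% and 5.45% of all peaks. Rises made up 62.2% of all called peaks at 12 h vs 0 h and 61.1% of those for 48 h vs 0 h, or 74.2% and 70.5% with TMM factors, and 76.7% and 77.7% with DESeq2. At 12 h vs 0 h this share was 50.5% with only the 4 compared libraries, and it ranged from 79.9% to 94.7% without 1 of those 4 libraries (93.6% without 0 h R2, 94.7% without 12 h R2). From 12 h to 48 h, 3 member peaks gained (5.36%) and 9 lost it (16.1%), compared with 10.7% and 8.43% of all peaks. The comparisons share libraries and are not independent of each other. The median log2 fold change of the members was 0.05 at 12 h vs 0 h, -0.21 for 48 h vs 0 h and -0.33 from 12 h to 48 h, compared with -0.08, -0.04 and -0.03 for all peaks. In all, 16 peaks of 9 genes (28.6% of the members) passed the test in at least 1 comparison, compared with 32.8% of all peaks, and 7 of these held fewer than 20 reads on average. Spred1 had no called peak. Of the losses from 12 h to 48 h, 6 of 9 were at Etv4.

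**Figure D1:**
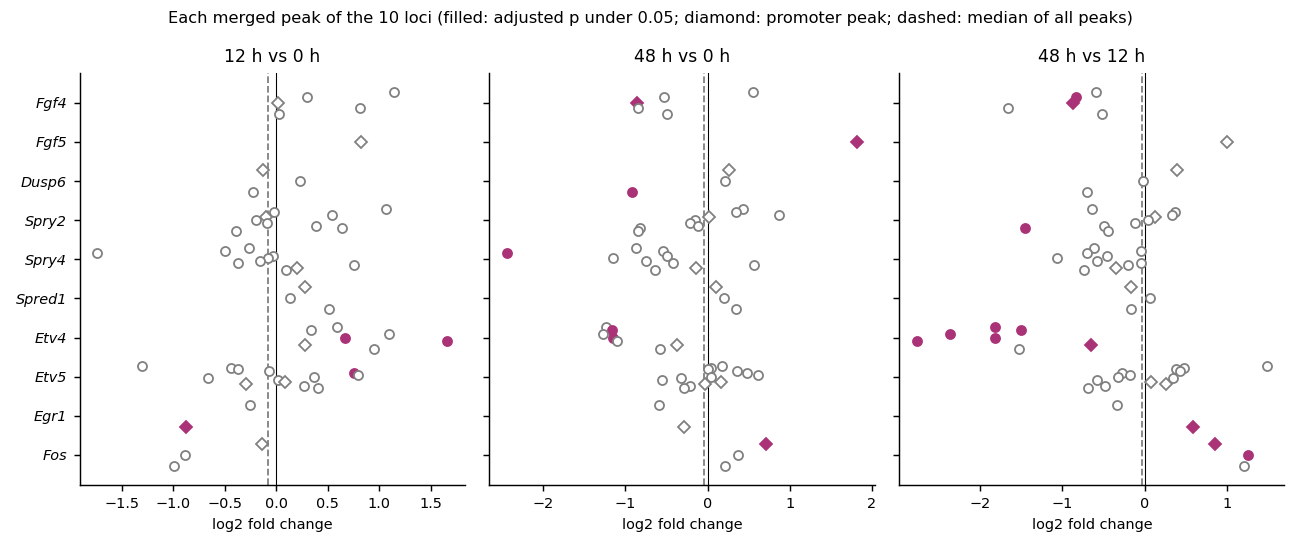
Log2 fold change (x axis) of each of the 56 member peaks, by gene (y axis), in 3 comparisons. Filled symbols passed the test, diamonds are promoter peaks and the dashed line is the median of all peaks. All 7 Etv4 peaks lie right of 0 at 12 h vs 0 h and left of 0 in both comparisons with 48 h.

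Promoters and other peaks of the loci differed in where their medians lay. The 12 promoter peaks, Fgf4_1 included, had a median log2 fold change of 0.05 at 12 h vs 0 h, 0.06 for 48 h vs 0 h and 0.10 from 12 h to 48 h. Over all promoter peaks, these medians were -0.38, 0.06 and 0.44. The other 44 member peaks had medians of 0.06, -0.37 and -0.45, compared with 0.08, -0.11 and -0.20 for all other peaks.

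Per locus, the counts were summed over its peaks and tested in the same way over the 16175 protein-coding genes with a peak. At 12 h vs 0 h, 1 member sum rose and 1 fell, compared with 7.13% and 30.2% of all gene sums. Of the sums at 48 h vs 0 h, 2 fell and the other 8 did not pass, compared with 6.45% of all gene sums that rose and 5.35% that fell. From 12 h to 48 h, 3 rose and 3 fell, compared with 38.2% and 7.73%. The sums of all genes moved together, with medians of -0.29 at 12 h vs 0 h, 0.03 for 48 h vs 0 h and 0.32 from 12 h to 48 h, and the medians of the 10 members were 0.10, 0.05 and -0.00. With TMM factors, 39.7% of the called sums at 12 h vs 0 h were rises, compared with 19.1% with library totals. Without 1 of the 0 h or 12 h libraries, few sums were called at 12 h vs 0 h, and rises made up 75.0% (without 0 h R1) to 100.0% (without 0 h R2) of them. Relative to the median of all genes at 48 h vs 12 h, the falls of Fgf4, Spry4 and Etv4 were thus larger than their own values, and the rise of Dusp6 was of about the size of that median.

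**Figure D2:**
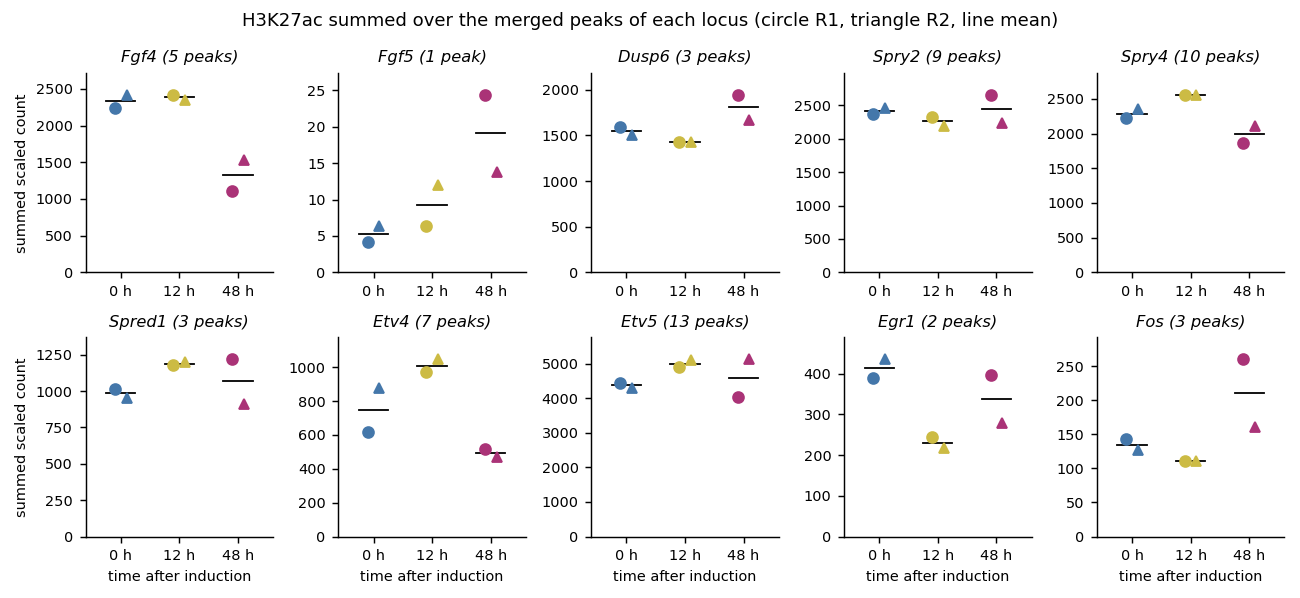
Scaled H3K27ac counts summed over the peaks of each of the 10 loci (y axis, from 0 in every panel) at 0 h, 12 h and 48 h, with circles for R1, triangles for R2 and lines for the mean. Fgf4 and Etv4 at 48 h lie below all other libraries, and Egr1 at 12 h does so too.

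Fgf4, the ligand that ES cells secrete, kept its H3K27ac at 12 h and fell to a lower level at 48 h. The gene lies on the plus strand of chromosome 7 (144847367 to 144865243), with 5 peaks, of which Fgf4_3 (144853068 to 144868706) covers the protein-coding TSS, the coding exons and the UTRs in a domain of 15639 bp. This peak held 2051 and 2237 scaled counts at 0 h (R1 and R2), then 2197 and 2139 at 12 h, before reaching 988 and 1385 at 48 h. Both 48 h libraries lay below the other 4 libraries, which differed little among themselves. Fgf4_3 fell at 48 h vs 0 h by 0.85 on the log2 scale (SE 0.15, adjusted p = 0.00037), and at 48 h vs 12 h by 0.87 (SE 0.15, adjusted p = 0.00054), whereas the value at 12 h vs 0 h was 0.02 (adjusted p = 0.95). It was called lost in both comparisons under every alternative and with any single library left out. Without 48 h R1, the library with the lower level, the log2 fold change was -0.63 at 48 h vs 0 h, and without 48 h R2 it was -1.12.

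The peak Fgf4_2 (144850881 to 144852374) lies in the annotated span of the gene, but 9012 bp before its first protein-coding TSS. This peak changed in the same direction as Fgf4_3. It held 80.0 and 66.9 scaled counts at 0 h, compared with 90.1 and 91.1 after 12 h, and with 43.3 and 57.6 after 48 h. It fell by 0.83 at 48 h vs 12 h (SE 0.26, adjusted p = 0.028), and this call was lost without 12 h R1 (-0.84), 12 h R2 (-0.82) or 48 h R1 (-0.65), without either 0 h library (-0.83), with the 4 compared libraries alone (-0.83), and with DESeq2 (-0.82). At 48 h vs 0 h, Fgf4_2 did not pass (-0.53), but it did without 48 h R2 (-0.76). The remaining 3 peaks were not called. All 5 peaks were lower at 48 h than at 12 h, by 0.51 to 1.66 on the log2 scale. Summed over the locus, Fgf4 held 2245 and 2411 scaled counts at 0 h, against 2422 and 2353 at 12 h, while 48 h gave 1112.5 and 1529.7. The sum fell by 0.81 at 48 h vs 0 h (adjusted p = 0.0030) and by 0.85 at 48 h vs 12 h (adjusted p = 0.0036). The first call was lost without 0 h R2 (-0.76), and the second without 12 h R1 (-0.83) or 12 h R2 (-0.87).

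Fgf5, the ligand of the primed epiblast, had a single small peak, Fgf5_1, of 355 bp over its TSS and first exon (chromosome 5, 98254192 to 98254546). It held 4 and 6 reads at 0 h, then 6 and 13 at 12 h, before reaching 22 and 16 at 48 h, which are 4.10 and 6.37, 6.43 and 12.0, and 24.4 and 13.8 scaled counts. The 48 h libraries lay above all others, but with few reads. Fgf5_1 rose by 1.82 on the log2 scale at 48 h vs 0 h (SE 0.57, adjusted p = 0.033). The call was lost with DESeq2 (1.94) and without 0 h R1 (1.54), 0 h R2 (2.16) or 48 h R1 (1.38). In the test of gene sums, where this peak is the whole locus, the same difference had an adjusted p of 0.070, and it passed without 48 h R2 (2.2). The value for 12 h vs 0 h (0.82) missed the threshold in every setting, and was 0.29 without 12 h R2 and 1.18 without 12 h R1. The value from 12 h to 48 h (0.99) missed it too, but was called without 48 h R2 (1.37), and was 0.55 without 48 h R1, 0.64 without 12 h R1 and 1.53 without 12 h R2.

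Of the feedback inhibitors, Dusp6 encodes a phosphatase that removes the activating phosphates of ERK. It lies on chromosome 10 (99263231 to 99267489), and most of it is covered by a promoter domain of 6497 bp, Dusp6_1, with 1459 and 1362 scaled counts at 0 h, compared with 1282 and 1294 after 12 h, and with 1813 and 1562 after 48 h. Both 48 h libraries lay above both libraries of each other time point. The promoter peak differed by 0.39 between 12 h and 48 h (SE 0.14, adjusted p = 0.053), short of the threshold. It passed with the offset for GC content (0.31) and without 48 h R1 (0.28) or 48 h R2 (0.49). Relative to 0 h, the peak at 48 h was called only without 48 h R2 (0.36, against 0.26 with all libraries). Summed over its 3 peaks, Dusp6 held 1593 and 1501 scaled counts at 0 h, against 1426 and 1430 at 12 h, while 48 h gave 1949 and 1666. The sum rose by 0.34 at 48 h vs 12 h (SE 0.10, adjusted p = 0.021), a call that was lost without 12 h R1 (0.34) or 12 h R2 (0.34) and with the 4 compared libraries alone (0.34). Without 48 h R1, the rise was 0.22 and still passed. Relative to 0 h, the sum at 48 h (0.22) passed only without 48 h R2 (0.33).

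Downstream of Dusp6, the peak Dusp6_3 (99270377 to 99271572) moved the other way. It held 56.4 and 67.9 scaled counts at 0 h, then 45.0 and 60.7 at 12 h, before reaching 30.0 and 35.2 at 48 h. Both 48 h libraries lay below all others, and the peak fell by 0.92 at 48 h vs 0 h (SE 0.29, adjusted p = 0.037). The call was lost with TMM factors (-0.85), with DESeq2 (-0.86), with the 4 compared libraries alone (-0.92), without 0 h R1 (-1.05) or 0 h R2 (-0.78), and without either 12 h library (-0.92). It held without either 48 h library. From 12 h to 48 h it did not pass (-0.69), but it did without 48 h R2 (-0.83).

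Spry2, a Sprouty inhibitor of receptor signalling to Ras and ERK, had 9 peaks on chromosome 14. Its promoter domain Spry2_4 (105892291 to 105902776, 10486 bp) covers most of the gene and held 2283 and 2377 scaled counts at 0 h, compared with 2232 and 2105 after 12 h, and with 2593 and 2143 after 48 h. The ranges of 0 h and 48 h overlapped. The log2 fold changes were -0.10 at 12 h vs 0 h, 0.02 for 48 h vs 0 h and 0.13 from 12 h to 48 h (SE 0.13 each), none of which passed the test. Without 48 h R2, this last value was 0.26 and passed. The remaining 8 peaks each held fewer than 20 reads on average. Of these, the upstream peak Spry2_8 (105904983 to 105905378) was called, with 12 and 11 reads at 0 h, against 16 and 22 at 12 h, while 48 h gave 5 and 9. It fell by 1.46 at 48 h vs 12 h (SE 0.49, adjusted p = 0.039). Its call was lost without either 0 h library (-1.46), without 12 h R1 (-1.57), 12 h R2 (-1.33) or 48 h R1 (-1.27), with the 4 compared libraries alone (-1.46), and in DESeq2, which gave it no adjusted p.

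Spred1, a Sprouty-related inhibitor of Raf activation, has its promoter domain Spred1_1 on chromosome 2 (117118525 to 117124408). The peak held 933 and 893 scaled counts at 0 h, then 1097 and 1110.3 at 12 h, before reaching 1149 and 816 at 48 h. Both 12 h libraries lay above both 0 h libraries, and the 48 h libraries lay on either side of all others. None of its 3 peaks passed the test in any comparison. The promoter peak differed by 0.27 at 12 h vs 0 h (SE 0.16, adjusted p = 0.24), and it was called when either 48 h library was left out and with the 4 compared libraries alone. The 48 h libraries went opposite ways, since the value at 48 h vs 12 h was -0.44 and called without 48 h R1, and the value at 48 h vs 0 h was 0.33 and called without 48 h R2.

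Spry4, another Sprouty inhibitor, had its highest level at 12 h. Its 10 peaks, on chromosome 18, include the promoter domain Spry4_9 of 10196 bp, which held 1851 and 1971 scaled counts at 0 h, compared with 2183 and 2211 after 12 h, and with 1668 and 1799.7 after 48 h. The 3 time points did not overlap. Summed over all its peaks, Spry4 held 2221 and 2355 scaled counts at 0 h, against 2552 and 2563 at 12 h, while 48 h gave 1869.7 and 2116. The sum fell by 0.36 at 48 h vs 12 h (SE 0.10, adjusted p = 0.014), a call that was lost without 12 h R1 (-0.36) or 12 h R2 (-0.36). The sum differed by 0.16 at 12 h vs 0 h (adjusted p = 0.19), and this was called when either 48 h library was left out and with the 4 compared libraries alone. At 48 h vs 0 h the sum did not pass (-0.20), but it did without 48 h R2 (-0.29). The promoter peak itself did not pass at 48 h vs 12 h (-0.34, adjusted p = 0.071), but it did with the GC offset and when either 48 h library was left out.

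All 10 Spry4 peaks had a lower mean at 48 h than at 12 h, by 0.04 to 1.06 on the log2 scale, and none of them was called. The downstream peak Spry4_3, of 294 bp, held 15 and 11 reads at 0 h, then 4 and 4 at 12 h, before reaching 1 and 4 at 48 h. It fell by 2.44 at 48 h vs 0 h (SE 0.73, adjusted p = 0.025), with few reads after 0 h. The call was lost without 0 h R1 (-2.22), 0 h R2 (-2.62) or 48 h R1 (-1.94) and in DESeq2, which gave it no adjusted p. Without 48 h R2 the value was -3.46.

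Etv4, an ETS transcription factor of the PEA3 family that ERK signalling induces, was the member with the most called peaks. The gene lies on the minus strand of chromosome 11 (101769742 to 101785371), and all 7 of its peaks had a higher mean at 12 h than at 0 h and a lower mean at 48 h than at 0 h, although the latter turned in Etv4_5 without 0 h R2 (0.30, against -1.10 with all libraries). Etv4_4 (101770807 to 101774337), 3531 bp over exons in the 3′ part of the gene, made up 41.1% of the fall of the locus from 12 h to 48 h in scaled counts, and the promoter peak Etv4_6 made up 40.3%. Etv4_4 held 148 and 226 scaled counts at 0 h, compared with 272 and 321 after 12 h, and with 77.7 and 90.3 after 48 h. The 3 time points did not overlap. Etv4_4 rose by 0.67 at 12 h vs 0 h (SE 0.22, adjusted p = 0.036), fell by 1.15 at 48 h vs 0 h (SE 0.23, adjusted p = 0.0014) and fell by 1.82 at 48 h vs 12 h (SE 0.23, adjusted p = 2.5e-05).

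The fall of Etv4_4 from 12 h to 48 h was called under every alternative and with any single library left out, with log2 fold changes between -1.94 and -1.69. The fall relative to 0 h was lost without 0 h R2 (-0.81). The rise at 12 h was lost with DESeq2 (0.72) and without 0 h R1 (0.39), 0 h R2 (1.01), 12 h R1 (0.78) or 12 h R2 (0.54). The 0 h libraries differed from each other by more than the 12 h libraries did.

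Near it, the smaller Etv4_5 (101774771 to 101775384) held 3 and 13 reads at 0 h, against 26 and 28 at 12 h, while 48 h gave 1 and 7. Both 12 h libraries lay above all others. It rose by 1.66 at 12 h vs 0 h (SE 0.53, adjusted p = 0.035) and fell by 2.77 at 48 h vs 12 h (SE 0.60, adjusted p = 0.0032). The rise was lost without 0 h R1 (0.95), 12 h R1 (1.61) or 12 h R2 (1.72), it was 3.07 without 0 h R2, and DESeq2 gave no adjusted p. The fall held with any library left out and was -4.44 without 48 h R2, and -2.13 without 48 h R1.

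Etv4_2 (101769034 to 101770105), at the 3′ end of the gene, held 39.0 and 49.9 scaled counts at 0 h, then 51.5 and 60.7 at 12 h, before reaching 17.8 and 21.5 at 48 h. It fell by 1.16 at 48 h vs 0 h (SE 0.33, adjusted p = 0.018) and by 1.5 at 48 h vs 12 h (SE 0.32, adjusted p = 0.0026). The first call was lost with DESeq2 (-1.11) and without 0 h R1 (-1.33) or 0 h R2 (-0.98), and the second without 12 h R2 (-1.37). The neighbouring Etv4_3, of 288 bp, held 8 and 8 reads at 0 h, compared with 21 and 15 after 12 h, and with 3 and 4 after 48 h, and it fell by 2.36 at 48 h vs 12 h (adjusted p = 0.0087), a call that was lost without 12 h R1 (-1.99). Downstream of the gene, Etv4_1 held 9 and 11 reads at 0 h, against 12 and 20 at 12 h, while 48 h gave 5 and 4. It fell by 1.82 at 48 h vs 12 h (adjusted p = 0.030), and this was lost without 12 h R1 (-2.04), 12 h R2 (-1.52) or 48 h R2 (-1.49). DESeq2 gave no adjusted p for either of the last pair of peaks.

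The promoter peak Etv4_6 (101783268 to 101787518) changed by less than the peaks in the gene body. It held 402 and 557 scaled counts at 0 h, then 568 and 591 at 12 h, before reaching 402 and 340.5 at 48 h. The 48 h libraries were lower than either 12 h library, and 0 h R1 lay level with 48 h R1. The peak fell by 0.65 at 48 h vs 12 h (SE 0.18, adjusted p = 0.015), a call that was lost without 12 h R1 (-0.67) or 12 h R2 (-0.62). At 12 h vs 0 h it differed by 0.27 (adjusted p = 0.29), which became 0.50 and was called with the GC offset. It was also called with the 4 compared libraries alone or without either 48 h library (0.27). At 48 h vs 0 h it did not pass (-0.37), but it did without 48 h R1 (-0.49). The upstream peak Etv4_7, the only Etv4 peak with no call, had a value of -1.52 at 48 h vs 12 h (adjusted p = 0.067).

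Summed over the 7 peaks, Etv4 held 616 and 879 scaled counts at 0 h, compared with 970.4 and 1051 after 12 h, and with 517 and 468 after 48 h. It was the only member whose sum passed in all 3 comparisons. It rose by 0.44 at 12 h vs 0 h (SE 0.15, adjusted p = 0.044), fell by 0.60 at 48 h vs 0 h (SE 0.16, adjusted p = 0.030) and fell by 1.04 at 48 h vs 12 h (SE 0.15, adjusted p = 0.0030). The rise was lost with TMM factors (0.50) and without 0 h R1 (0.20), 0 h R2 (0.71), 12 h R1 (0.49) or 12 h R2 (0.38). The fall relative to 0 h was lost with TMM factors (-0.53), with DESeq2 (-0.53), with the 4 compared libraries alone (-0.60), and without 0 h R2 (-0.32), 12 h R1 (-0.60) or 12 h R2 (-0.60). The fall from 12 h was lost without 12 h R2 (-0.98) only.

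**Figure D3:**
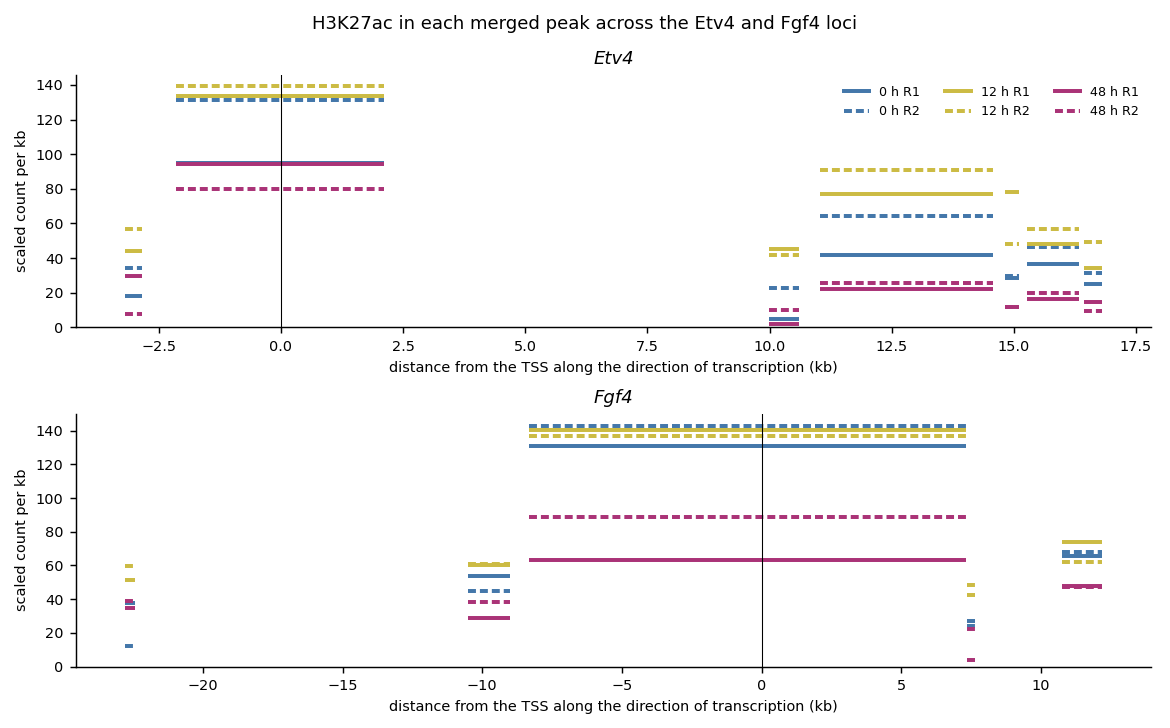
H3K27ac in scaled counts per kb (y axis) in each merged peak of the Etv4 and Fgf4 loci, against distance from the TSS in kb along the direction of transcription (x axis). Colours give the time point, solid lines R1 and dashed lines R2. In Etv4_4, centred 12799 bp from the TSS, the 48 h libraries lie lowest and the 12 h libraries highest, and in Fgf4_3, across the TSS, both 48 h libraries lie below the others.

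Etv5, the close relative of Etv4, was not tested against it. Its 13 peaks on chromosome 16 included 3 domains over 5 kb, and the sum over the locus was 4449 and 4294 scaled counts at 0 h, against 4890.4 and 5093 at 12 h, while 48 h gave 4038 and 5139. The 12 h libraries lay above the 0 h libraries, and the 48 h libraries spanned all others. None of the comparisons of the sum passed the test (0.19, 0.07 and -0.12). The value of 0.19 at 12 h vs 0 h was called without either 48 h library and with the 4 compared libraries alone. Without 48 h R1 the sum was called higher at 48 h than at 0 h (0.23), and without 48 h R2 it was called lower at 48 h than at 12 h (-0.31). The largest peak, Etv5_7 in the gene body (22398608 to 22419159, 20552 bp), held 2317 and 2157 scaled counts at 0 h, then 2831 and 2936 at 12 h, before reaching 1899 and 2703 at 48 h, and was not called. It and Etv5_11 below were named after their values were seen.

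Of the Etv5 promoter peaks, Etv5_11 covers the first start, and Etv5_10 lies 954 bp from the nearest start of the gene. Etv5_10 held 1153 and 1052 scaled counts at 0 h, compared with 1112 and 1223 after 12 h, and with 1120.3 and 1348 after 48 h, with overlapping ranges and no call. It was called at 48 h vs 0 h without 48 h R1 (0.29). Etv5_11 held 689 and 787 at 0 h, against 603 and 602 at 12 h, while 48 h gave 735 and 705, and it was not called either. The intronic peak Etv5_5 (22395961 to 22397334) held 60.6 and 49.9 scaled counts at 0 h, then 99.7 and 87.4 at 12 h, before reaching 68.8 and 84.3 at 48 h. It rose by 0.76 at 12 h vs 0 h (SE 0.26, adjusted p = 0.048), close to the threshold. The call was lost with DESeq2 (0.81) and without 0 h R1 (0.90), 0 h R2 (0.62), 12 h R1 (0.66) or 12 h R2 (0.85).

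Egr1, an immediate-early zinc-finger factor, had its lowest level at 12 h. Its promoter peak Egr1_2, of 2978 bp on chromosome 18, covers the 5′ part of the gene and held 377 and 415 scaled counts at 0 h, compared with 224 and 207 after 12 h, and with 385 and 267 after 48 h. Both 12 h libraries lay below all others, whereas the 48 h libraries lay on either side of 0 h R1. The value at 48 h vs 0 h was -0.29 (adjusted p = 0.36), and it was -0.57 and called without 48 h R1. Egr1_2 fell by 0.88 at 12 h vs 0 h (SE 0.19, adjusted p = 0.0034) and rose by 0.59 at 48 h vs 12 h (SE 0.20, adjusted p = 0.035). The peak has a GC content of 62.0%, and its fall at 12 h was -0.47 with the GC offset, where it still passed (adjusted p = 0.025). That fall was lost without 0 h R2 (-0.81), 12 h R1 (-0.93) or 12 h R2 (-0.82).

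The rise of Egr1_2 from 12 h to 48 h rested on 48 h R1. Without it, the value was 0.31 and was not called, and without 48 h R2 it was 0.84. The call was also lost with DESeq2 (0.63), with the 4 compared libraries alone (0.59), without either 0 h library (0.59), and without 12 h R1 (0.65) or 12 h R2 (0.54). Summed with the small upstream peak, Egr1 held 389 and 436 scaled counts at 0 h, against 243 and 216 at 12 h, while 48 h gave 395 and 279. The sum fell by 0.85 at 12 h vs 0 h (adjusted p = 0.010), lost without 0 h R1 (-0.93), 0 h R2 (-0.76), 12 h R1 (-0.93) or 12 h R2 (-0.76). It rose by 0.55 at 48 h vs 12 h (adjusted p = 0.031), lost without 48 h R1 (0.28), without either 0 h library (0.55), without 12 h R1 (0.63) or 12 h R2 (0.46), and with the 4 compared libraries alone (0.55). The fall at 12 h stood beside a median of -0.29 over all gene sums.

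Fos, the immediate-early partner of Jun in AP-1, had its highest level at 48 h. Its promoter peak Fos_1 (chromosome 12, 85472109 to 85474262) held 111 and 96.6 scaled counts at 0 h, then 93.3 and 94.7 at 12 h, before reaching 209.8 and 132 at 48 h. Both 48 h libraries lay above the other 4, and R1 lay well above R2. Fos_1 rose by 0.71 at 48 h vs 0 h (SE 0.24, adjusted p = 0.048) and by 0.85 at 48 h vs 12 h (SE 0.24, adjusted p = 0.016). Both rises were smaller and not called without 48 h R1 (0.35 and 0.49), and they were 1.01 and 1.16 without 48 h R2. The first was also lost without 0 h R1 (0.82), 0 h R2 (0.62) or either 12 h library (0.72), with DESeq2 (0.80), with the low-count filter (0.71) and with the 4 compared libraries alone (0.72). The second was also lost without 12 h R1 (0.85) or 12 h R2 (0.87).

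Downstream of Fos, Fos_2 (85485610 to 85486042) held 17 and 20 reads at 0 h, compared with 10 and 11 after 12 h, and with 28 and 23 after 48 h. It rose by 1.26 at 48 h vs 12 h (SE 0.42, adjusted p = 0.039), and it was called with TMM factors, the low-count filter, the replicate block and the GC offset and without 48 h R2 (1.57). It was not called without 48 h R1 (0.92), 12 h R1 (1.30) or 12 h R2 (1.22), without either 0 h library (1.26), or with the 4 compared libraries alone (1.26), and DESeq2 gave it no adjusted p. Summed over its 3 peaks, Fos held 143 and 127 scaled counts at 0 h, against 110.4 and 110.4 at 12 h, while 48 h gave 261 and 161. The sum rose by 0.92 at 48 h vs 12 h (SE 0.24, adjusted p = 0.012). This was lost without 12 h R1 (0.93) or 12 h R2 (0.92), and was 0.54 without 48 h R1. At 48 h vs 0 h the sum did not pass (0.63, adjusted p = 0.11), but it did without 48 h R2 (0.95).

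Levels were compared between genes per kb of covered peak. At 0 h, Spry2 had the highest level (187 ± 4.46 scaled counts per kb, SD, n = 2), followed by Dusp6 (169 ± 7.10). Spry4 (135), Spred1 (130.1), Egr1 (122) and Fgf4 (121) came next, and neighbours among these 4 overlapped in their replicates. Etv5 (103), Etv4 (71.4), Fos (46.7) and Fgf5 (14.8) followed without overlap. At 12 h, Egr1 lay eighth (67.8), and Spred1 (157) and Dusp6 (156) overlapped. At 48 h, Dusp6 (197 ± 21.9) and Spry2 (189.8 ± 23.4) overlapped at the top, and Etv4 had the lowest mean (47.1 ± 3.35), with ranges that overlapped that of Fgf5 (53.8 ± 21.2). Taken as single peaks, all peaks had 25th and 75th percentiles of 34.6 and 67.1 scaled counts per kb. This is not the same measure as the values of the loci, which sum over peaks.

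Likeness across the 6 libraries was measured as Pearson's r of log2 locus sums, over the members and the other pathway genes. It is a description only, since all sums come from the same 6 libraries, whose shares of reads in promoter peaks differed, and the points include replicates. Dusp6 was most like Fos (r = 0.997) and least like Spry4 among the members (-0.99). Spry4 and Etv4 were both most like Ksr1 (0.964 and 0.928), a scaffold of the kinase cascade, and Fgf4 was most like the ERK-activated kinase gene Rps6ka1 (0.974). Fgf5 was most like Flrt3 (0.858), Spry2 most like Nf1 (0.968), Etv5 most like Map2k1 (0.842), and Egr1 most like Fgf8 (0.975).

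The rest of the pathway was taken from a list of 68 genes (ligands, receptors, adaptors, kinases, inhibitors and transcription factors), of which 62 had a promoter peak. Fgf2, Fgf8, Fgf9, Fgfr4 and Fosl1 had none, and Spry3 was not matched in the annotation and was not assessed. For each gene, the promoter peak with the highest mean count was used. That of Fgf3 is the member peak Fgf4_1. At 12 h vs 0 h, 3 of the 62 gained and 23 lost H3K27ac, with a median log2 fold change of -0.46, and 1.77% and 22.1% of the promoter peaks of all 13147 genes gained and lost it. The falls included 7 of 12 genes listed as inhibitors and 5 of 10 immediate-early factors. These became 3 and 0 with the GC offset and 3 and 1 with DESeq2, and fewer without 0 h R2 or without 12 h R2. Also falling were 4 of 13 kinase cascade genes, 3 of 8 adaptors or exchange factors and 2 of 8 ETS factors or repressors. The remaining falls were those of 1 of 7 ligands and 1 of 4 receptors. Over the whole list, 11 promoters were called in either direction with the GC offset, 11 with DESeq2, and 1 without 0 h R2 or without 12 h R2. The largest falls were those of Nf1 (-1.13), whose product stimulates Ras to hydrolyse GTP, the ETS factor gene Ets2 (-1.12) and Spred3 (-1.0), and the 3 rises were those of Fgf15 (1.0), Fgf1 (0.72) and Etv1 (0.59). All were still called with the GC offset, where the falls were -0.72, -0.71 and -0.66 and the rises 1.16, 0.67 and 0.45. With DESeq2, the fall of Nf1 was not called (-1.08). Without 12 h R2, the falls were -0.96, -0.79 and -0.99, and only that of Spred3 was called. Without 0 h R2, the rises were 0.83, 0.62 and 0.49, and none of them was called. The rise of Etv1 was not called without any one of the 0 h or 12 h libraries. Etv1, the third PEA3 factor, went from 562 and 484 scaled counts at 0 h to 787 and 789 at 12 h, and 872 and 905 at 48 h. Of the 10 member promoters, Egr1 alone was called at 12 h vs 0 h.

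Between 0 h and 48 h, 5 of the 62 promoters gained and 3 lost H3K27ac (median 0.01), compared with 4.07% and 2.82% of all genes. The largest rises were those of Flrt3 (1.45), the adaptor Frs2 (1.17) and Fgf15 (1.06), and the falls were those of Fgf17 (-1.36), Jund (-0.46) and Junb (-0.36). Without 48 h R1, 4 gained and 13 lost it, and without 48 h R2, 18 gained and 4 lost it. The rise of Flrt3 was not called without 48 h R1 (1.14) or without any one of the 0 h or 12 h libraries, and the falls of Jund and Junb were not called with TMM factors (-0.38 and -0.28). Flrt3, Jund and Junb were not called with DESeq2 (1.55, -0.39 and -0.29) or with the 4 compared libraries alone (1.46, -0.46 and -0.36). The falls of Jund and Junb were also not called without any one of the 0 h or 12 h libraries, and were -0.38 and -0.30 without 0 h R2. The Flrt3 peak held 6 and 11 reads at 0 h and 27 and 23 at 48 h. Frs2, which docks signalling proteins to FGF receptors, held 178 and 180.4 scaled counts at 0 h, then 210.2 and 247 at 12 h, before reaching 386 and 421 at 48 h. From 12 h to 48 h, 21 gained and 1 lost H3K27ac (median 0.48), compared with 34.5% and 2.38% of all genes. The largest rises were those of Gab1 (1.42), Nf1 (1.19) and Sos2 (1.18), an adaptor, an inhibitor and an exchange factor, and the fall was that of Fgf1 (-0.79). In 48 h R1 and R2, Gab1 held 475 and 291 scaled counts, Nf1 held 513 and 250.2, and Sos2 held 93.3 and 50.7. Without 48 h R1, these rises were 1.02, 0.60 and 0.70, the last of which was not called, and 14 promoters of the list gained H3K27ac. Without 48 h R2, 40 gained it. Among the member promoters, Fgf4 and Etv4 were called lost and Egr1 and Fos gained in that comparison.

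**Figure D4:**
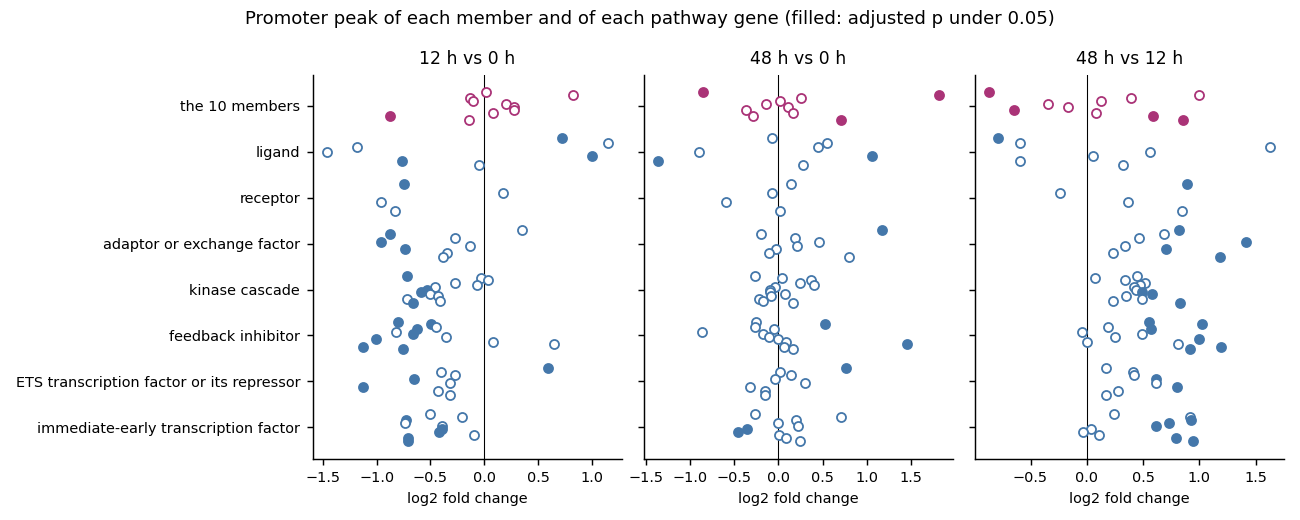
Log2 fold change (x axis) of the promoter peak of each of the 10 members and of the 62 other pathway genes, by role (y axis), in 3 comparisons, with filled circles for an adjusted p under 0.05. Most pathway promoters lie left of 0 at 12 h vs 0 h and right of 0 at 48 h vs 12 h.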

How the data were processed

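H3K27ac ChIP-seq was analysed in 6 libraries, with 2 replicates at each of 3 time points. The deposited table held raw read counts, not normalised, in 66841 merged peaks, which the authors made by aligning reads to mm10, calling peaks and counting reads per merged peak. Per the labels, the submitters' processing notes name Bowtie2, FastQC, MACS2 and SAMtools 0.1.19. All 6 count columns were used.

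Peaks were assigned to protein-coding genes of GENCODE M21 (gene body plus 10 kb). The counts were fitted over all peaks, and over gene sums, in R 4.3.3 with edgeR 4.0.16 (quasi-likelihood test, 1 coefficient per time point, library totals as the offset, no low-count filter). Benjamini-Hochberg adjustment ran over all features, with a threshold of 0.05. The code was tested on simulated data. All 10 members were named, with the promoter peak of the highest mean, every called peak and the locus sum. From the pathway list, the 3 largest called rises and falls in each comparison were named. Likeness was the highest Pearson's r. The members and lists were chosen with earlier results of these data known.

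Alternatives were TMM factors, DESeq2 1.42.0, a filter of at least 10 counts in at least 2 libraries, only the 4 libraries compared, a replicate block, an offset for GC content (lowess, span 0.3), both together, a window of 2 kb, and leaving out each library. With totals as the offset, a shift of signal between promoters and other peaks can move many genes together. PCR duplicates and input signal were not assessed, and counting error is larger in peaks with few reads.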

Additional observations from a re-analysis of the deposited data

Results flagged for a closer look

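Several members had changes from 0 h that were not the same at both later times, as tested directly by the contrast of 48 h with 12 h in edgeR. At the Fgf4 locus, this difference was -0.83 on the log2 scale in Fgf4_2, -0.87 in Fgf4_3 and -0.85 in the locus sum. At Etv4 it was -1.82 in Etv4_1, -1.50 in Etv4_2, -2.36 in Etv4_3, -1.82 in Etv4_4, -2.77 in Etv4_5, -0.65 in Etv4_6 and -1.04 in the locus sum. It was -1.46 in Spry2_8 and -0.36 in the sum of Spry4. The difference was positive in Egr1_2 (0.59) and the sum of Egr1 (0.55), in Fos_1 (0.85), Fos_2 (1.26) and the sum of Fos (0.92), and in the sum of Dusp6 (0.34). In this contrast, 10.7% of all peaks gained and 8.43% lost H3K27ac. Of all gene sums, 38.2% rose and 7.73% fell, with a median of 0.32, about the value of Dusp6. The calls of Fgf4_2, Spry2_8, Egr1_2 and Fos_2 were lost when most single libraries were left out, as given above. With 2 libraries per time point, no library could be tested for standing apart from its group.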

How the results depend on the processing

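The numbers of called peaks depended on the settings, and so did the share of rises among all called peaks and gene sums, as given above. No named result changed sign while called. Over all peaks, 10666 were called at 12 h vs 0 h, 9365 for 48 h vs 0 h and 12796 from 12 h to 48 h, compared with 5293, 4622 and 7465 with DESeq2. With the 4 compared libraries alone, 21403 were called at 12 h vs 0 h and 8368 from 12 h to 48 h, and the replicate block with the GC offset called 14111 at 48 h vs 0 h. Of the member peaks, 3 gained H3K27ac at 12 h vs 0 h, compared with 5 with TMM factors, 0 with DESeq2, 10 with 4 libraries, 5 with the GC offset and 5 with block and GC offset. The 1 lost became 4, 2 and 2 with the last 3 settings. At 48 h vs 0 h, the 2 gained became 0 with DESeq2, 1 with the low-count filter and 1 with 4 libraries, and the 5 lost became 2 with DESeq2 and 3 within 2 kb of the genes. At 48 h vs 12 h, the 3 gained became 1 with DESeq2 and 1 with 4 libraries, and the 9 lost became 4 with DESeq2, 14 with the GC offset and 16 with block and GC offset. Of the locus sums, the 2 called at 12 h vs 0 h became 1 with TMM factors and 5 with 4 libraries, and the 2 at 48 h vs 0 h became 1 with TMM factors, 1 with DESeq2 and 1 with 4 libraries. Of the pathway promoters, the 26 called at 12 h vs 0 h became 17 with TMM factors, 11 with DESeq2, 42 with 4 libraries, 11 with the GC offset and 11 with block and GC offset. The 8 at 48 h vs 0 h became 4 with DESeq2, 4 with 4 libraries, 14 with the GC offset and 13 with block and GC offset. Leaving out 1 library gave, in the same order of comparisons, between 1559 and 21376, 1967 and 15737, and 1742 and 24591 called peaks. It gave 0 to 10, 0 to 4 and 0 to 8 member peaks gained, 0 to 4, 1 to 8 and 4 to 14 lost, 0 to 5, 0 to 7 and 0 to 9 locus sums called, and 1 to 42, 2 to 22 and 3 to 42 pathway promoters called. Where a time point kept 1 library, that library was assumed to vary like the others. Without a 48 h library, the spread came from the 0 h and 12 h pairs, which stood closer together than the 48 h pair. A call in that setting is therefore no sign of a firmer result. The replicate block changed the call of none of the 93 results of the members, ended that of the pathway gene Junb at 48 h vs 0 h (-0.36) and called 10923 peaks at 12 h vs 0 h. Libraries of the same number correlated in their deviations by -0.04 (0 h and 12 h), -0.09 (0 h and 48 h) and 0.11 (12 h and 48 h) over 41757 peaks, and they share only a number. TMM factors shifted the median log2 fold change of all gene sums at 12 h vs 0 h from -0.29 to -0.23, and DESeq2 to -0.24. The GC offset was not run for gene sums. The causes of these differences were not tested, and depth limits the 29 member peaks with under 20 reads.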
